A study of Mus musculus with 4 samples.

Results

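The miR-181 family was represented on the array by 4 mature 5p arms of mouse (mmu), mmu-miR-181a-5p, mmu-miR-181b-5p, mmu-miR-181c-5p and mmu-miR-181d-5p, named from here on without the prefix. They were chosen by name and not by a measured value, and they are 4 of the 1247 mouse miRNAs measured. The samples were 4 one-colour Agilent miRNA arrays of the stromal vascular fraction (SVF) of visceral white adipose tissue (visWAT), 2 from vehicle-treated and 2 from CL-316243 (CL)-treated mice. CL stimulates β3-adrenergic receptors, and the SVF holds the stromal, vascular and immune cells that remain once floating adipocytes are removed from digested fat. All mice were female and 8 weeks old. The CL mice received 1 mg/kg of CL in PBS for 3 days, and the vehicle mice received PBS for the same time. Each array held RNA pooled from 5 mice, so that the spread between arrays is a spread between pools. The labels describe the injections as subcutaneous and the paper as intraperitoneal. The labels also name the strain as C57/BL6, C57/BL7, C57/BL8 and C57/BL9 on the 4 arrays, whereas the methods name C57BL/6 mice throughout.

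A miRNA guides Argonaute proteins to mRNAs, chiefly through its seed, which is the stretch of bases 2 to 8, and lowers the output of the mRNAs it pairs with. The miR-181 family is known for its roles in lymphocyte development, where it sets the sensitivity of T cell receptor signalling. In endothelial cells, miR-181b is known to dampen NF-κB signalling through importin-α3, and in white adipocytes of mice the family has been tied to obesity and insulin sensitivity. The comparison of CL with vehicle asked which miRNAs of the SVF changed early in browning.

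The 4 mature sequences from RefSeq (GRCm38.p6) are given because they share 1 seed and differ only outside it, which decides how far the array can tell them apart. Capitals mark the seed.
miR-181a-5p: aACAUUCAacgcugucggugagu
miR-181b-5p: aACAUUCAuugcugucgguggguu
miR-181c-5p: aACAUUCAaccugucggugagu
miR-181d-5p: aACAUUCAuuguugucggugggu
The seed ACAUUCA was found in these 4 of the 1679 mature mouse miRNA names in the RefSeq table and in no other. Counted from 1 at the 5′ end, miR-181a-5p and miR-181b-5p differed at 3 of 23 positions, written as A9U, C10U and A21G with the base of miR-181a-5p first. Over the same 23 positions, miR-181b-5p and miR-181d-5p differed at 1, C12U. The miR-181c-5p sequence is 1 base shorter than that of miR-181a-5p.

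The family is encoded by 3 clusters of 2 genes each. In GRCm38.p6, Mir181a-1 and Mir181b-1 lie on chromosome 1 at 137966455 to 137966541 and 137966639 to 137966718. Mir181a-2 and Mir181b-2 lie on chromosome 2 at 38852735 to 38852810 and 38853830 to 38853918, within the spans of the nuclear receptor gene Nr6a1 and of the long non-coding RNA gene Nr6a1os. Mir181d and Mir181c lie on chromosome 8 at 84178716 to 84178787 and 84178873 to 84178961. No other gene of the RefSeq table overlaps the clusters on chromosomes 1 and 8. Since the 5p arms of both miR-181a genes have the same sequence, as have those of both miR-181b genes, a signal of miR-181a-5p or miR-181b-5p is the sum of its 2 loci.

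For each member, the array carried 2 probes, which ranged from 13 to 19 nucleotides and were printed in 20 spots apiece. The stretch that the longest probe of each member pairs with is shown in capitals.
miR-181a-5p: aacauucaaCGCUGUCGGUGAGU
miR-181b-5p: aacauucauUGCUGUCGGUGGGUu
miR-181c-5p: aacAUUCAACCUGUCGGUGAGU
miR-181d-5p: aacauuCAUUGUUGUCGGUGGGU
No probe was shared between members, and each of the 8 paired in full with its own member and with no other mature miRNA in RefSeq. The probes were nevertheless near-identical in part. Of the 13 and 14 bases that the miR-181a-5p probes pair with, the last 12 also stand in miR-181c-5p. Of the 13 and 14 bases that the miR-181b-5p probes pair with, 11 in a row also stand in miR-181d-5p and 10 in miR-181a-5p. The longer probes of miR-181c-5p (18 and 19 nucleotides) and miR-181d-5p (16 and 17) had runs of 12 and 11 bases in common with miR-181a-5p and miR-181b-5p. How much of a signal came from a near-identical member was not tested, so that the 4 members are not 4 independent measurements.

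All 4 members were detected on all 4 arrays by the scanner software. Before any normalization, the 14-nucleotide probe of miR-181a-5p had median spot signals of 283.1 and 265.4 on vehicle 1 and 2 and of 238.5 and 265.6 on CL 1 and 2. The CL arrays lay on both sides of vehicle 2, and all were far above the means of the negative control spots, which were 37.1, 31.7, 38.6 and 32.8 on the same arrays. The 14-nucleotide probe of miR-181b-5p gave 112.4 and 95.3 for vehicle and 96.1 and 101.6 for CL. For the 19-nucleotide probe of miR-181c-5p, vehicle medians were 93.9 and 78.0 and CL medians 84.8 and 80.8. In both, the CL arrays fell between the vehicle arrays with the background left in. The 17-nucleotide probe of miR-181d-5p gave 75.8 and 67.0 for vehicle and 68.5 and 68.1 for CL. With the background left in, both CL arrays again lay inside the range of the vehicle arrays. Less each array's negative control mean, the same probe gave 38.7 and 35.32 for vehicle and 29.9 and 35.30 for CL. Both CL arrays were thus lower. For miR-181a-5p, both were also lower, at 199.9 and 232.8 against 246.1 and 233.7. On CL 1, miR-181b-5p then had 57.5, against 75.3 and 63.6 for vehicle. There miR-181c-5p had 46.20, against 56.8 and 46.32. For both of these members, CL 2 lay between the vehicle arrays. On 7 of the 8 probes, all 20 spots were well above background on every array. The exception was the 16-nucleotide probe of miR-181d-5p, with 17, 12, 9 and 14 such spots on vehicle 1, vehicle 2, CL 1 and CL 2, so that miR-181d-5p was measured closest to the background. Signals of different probes also depend on the probe, so that no member is called more abundant than another.

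**Figure D1:**
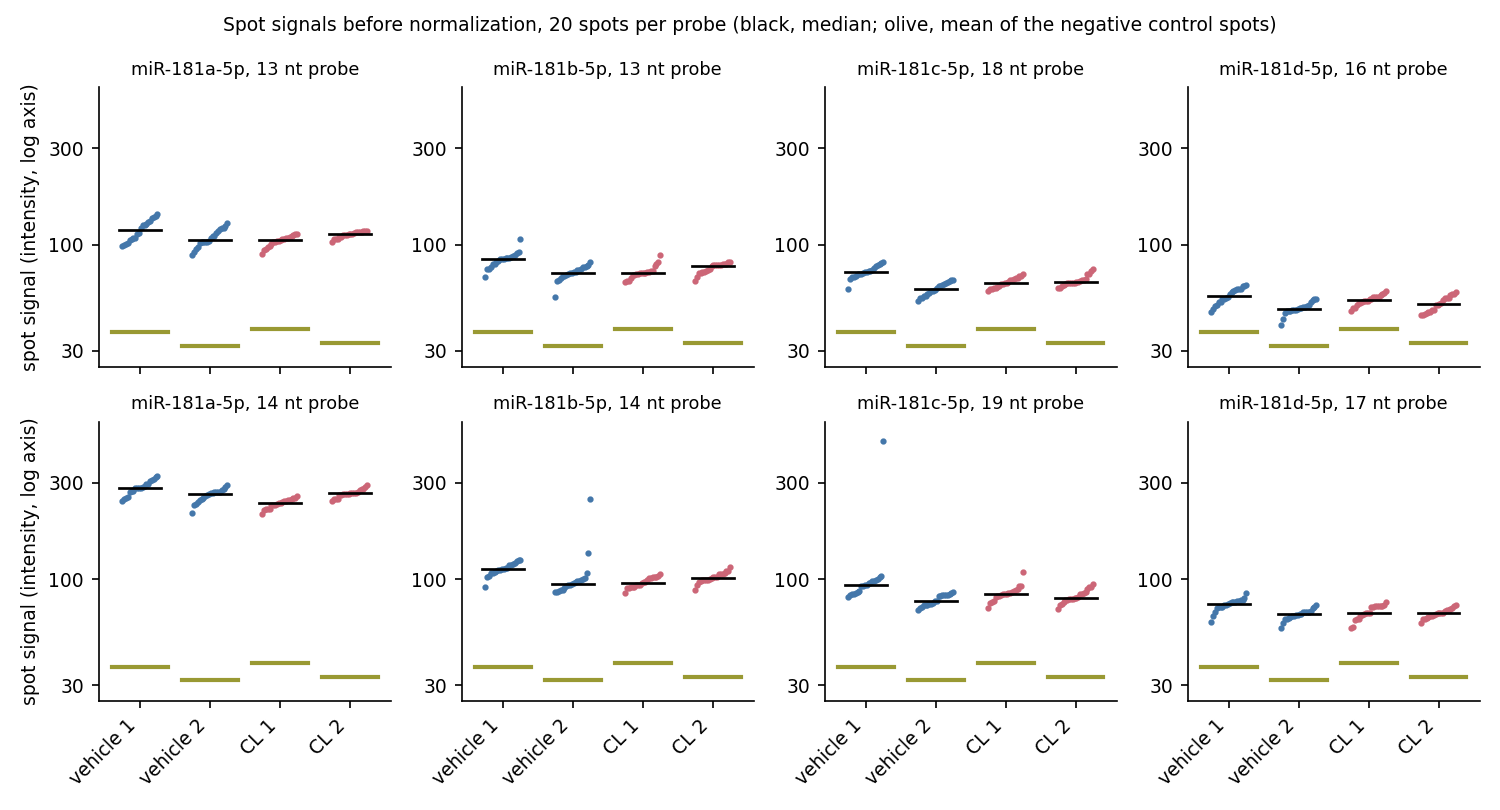
Signal of each of the 20 spots of a probe (points, intensity on a log axis) on the vehicle (blue) and CL (red) arrays, for the shorter probe (top) and the longer probe (bottom) of each member. Black lines are medians and olive lines the means of the negative control spots. With the background left in, the CL medians of miR-181b-5p, miR-181c-5p and miR-181d-5p on the longer probes lie between the vehicle medians. On vehicle 1, 1 spot of the 19-nucleotide probe of miR-181c-5p stands out at 480.2. On vehicle 2, 1 spot of the 14-nucleotide probe of miR-181b-5p stands out at 250.9.

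Normalized signals of the family were nearly level between CL-treated and vehicle-treated SVFs, and none of the 4 members passed the test. For miR-181a-5p, the normalized log2 signal was 7.20 for vehicle 1 and 7.21 for vehicle 2, against 7.19 for CL 1 and 7.27 for CL 2. The groups overlapped, with the CL arrays lowest and highest. Its means were 7.21 ± 0.0081 (SD, n = 2 arrays) for vehicle and 7.23 ± 0.051 (SD, n = 2) for CL. By limma's moderated test, the difference was 0.023 on the log2 scale (standard error 0.12, adjusted p = 0.887). Its 95% interval ran from −0.29 to 0.33, which is 0.821-fold to 1.26-fold.

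For miR-181b-5p, the member known from endothelial cells, vehicle 1 and 2 had log2 signals of 6.15 and 6.10, and CL 1 and 2 had 6.05 and 6.13. The groups overlapped, with CL 1 lowest and CL 2 between the vehicle arrays. The log2 fold change was −0.035 (standard error 0.12, adjusted p = 0.838 from limma), with a 95% interval from −0.35 to 0.28, or 0.786-fold to 1.21-fold. Means were 6.12 ± 0.035 (SD, n = 2) for vehicle and 6.09 ± 0.053 (SD, n = 2) for CL.

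The pair encoded on chromosome 8 had changes of the same order. For miR-181c-5p, log2 signals of 5.83 and 5.79 were measured for vehicle and 5.83 and 5.83 for CL. Both CL arrays lay within the range of the vehicle arrays. The log2 fold change was 0.017 (standard error 0.11, adjusted p = 0.909 from limma), with a 95% interval from −0.29 to 0.32. For miR-181d-5p, each vehicle array had a log2 signal of 5.43, and the CL arrays had 5.49 and 5.46. This was the only member whose groups did not overlap, with both CL arrays higher, by 0.042 on the log2 scale (standard error 0.11, 95% interval −0.26 to 0.34, adjusted p = 0.804 from limma). Of its probes, averaged over spots, the 16-nucleotide one, nearest the background, was at 0.064, and the 17-nucleotide one at −0.0094. An exact permutation test of this member gave p = 0.333, below which 2 arrays against 2 cannot go, and the exact p of the others was 0.667 or 1.

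**Figure D2:**
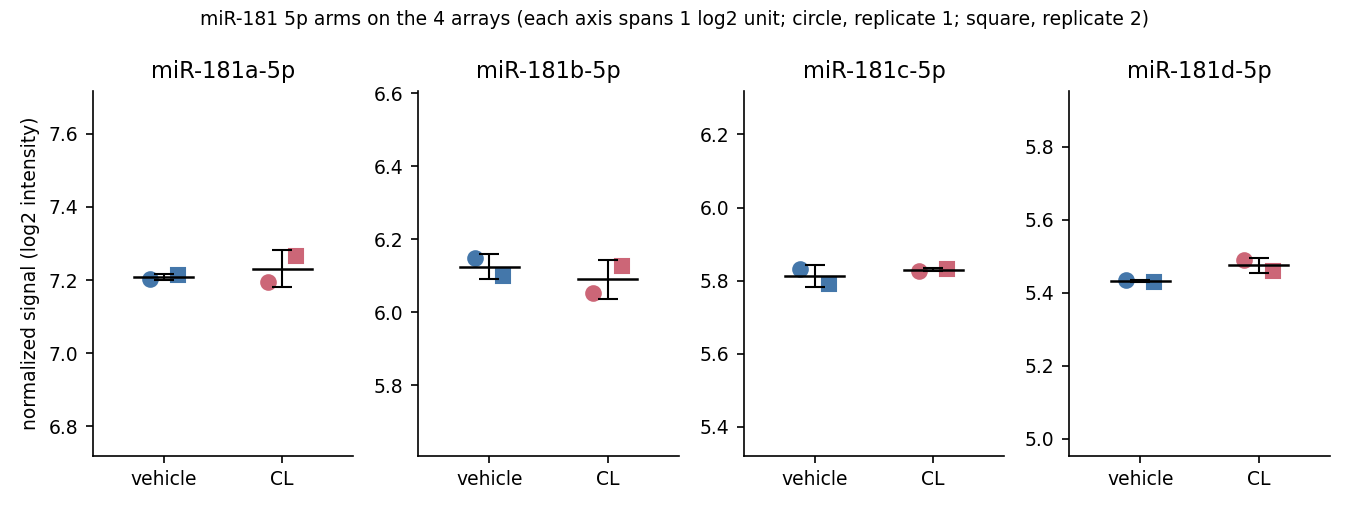
Normalized log2 signal of each member on the vehicle (blue) and CL (red) arrays, with replicate 1 as a circle and replicate 2 as a square. Horizontal lines are group means and bars are 1 SD (n = 2 arrays). Each axis spans 1 log2 unit, and the 4 values of every member fall within 0.097 of each other.

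The members were read against what the other miRNAs did on the same arrays. None of the 425 miRNAs tested passed an adjusted p of 0.05 in limma (0%), and 149 passed the unadjusted threshold of 0.05 (35.1%), among which there were 0 of the 4 members. The groups did not overlap for 72.9% of all tested miRNAs, with CL higher in 38.1% and lower in 34.8%, and for 1 of the 4 members. The median log2 fold change was 0.020 over the members and −0.0079 over all tested miRNAs. In absolute size, the median was 0.029 over the members and 0.34 over all tested miRNAs. Only 35 of the 425 tested miRNAs, the members included, changed by no more than the 0.042 of miR-181d-5p. The standard errors of the members (0.11 to 0.12) were larger than the SDs between their own arrays (0.0033 to 0.053), because limma draws each miRNA's variance towards that of all tested miRNAs.

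All 4 arrays lay on 1 slide. Row 1 held the vehicle arrays and row 2 the CL arrays, and thus row and treatment cannot be told apart. A column held 1 vehicle and 1 CL array, which had the same replicate number. Within the column of replicate 1, CL minus vehicle was −0.0069 for miR-181a-5p, −0.097 for miR-181b-5p, −0.0063 for miR-181c-5p and 0.055 for miR-181d-5p on the log2 scale. Within that of replicate 2 it was 0.053, 0.027, 0.041 and 0.029 in the same order. Thus 3 members changed sign between the columns, and only miR-181d-5p was higher after CL treatment in both. With the column as a block in limma, an adjusted p of 0.05 was passed by 20.2% of the tested miRNAs and by 0 of the 4 members, with adjusted p between 0.883 and 0.945. The 95% interval of miR-181a-5p then ran from 0.767-fold to 1.35-fold.

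**Figure D3:**
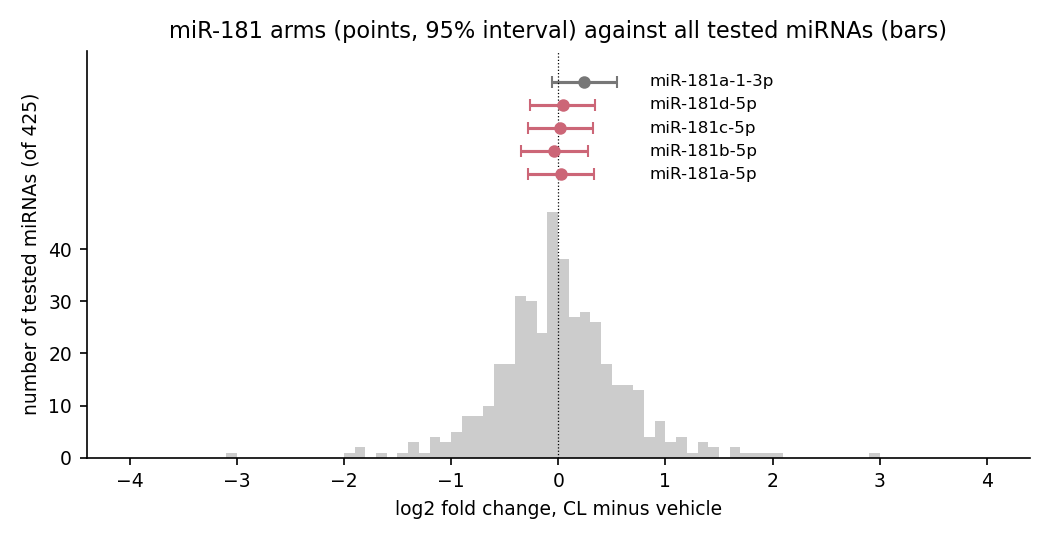
Log2 fold change (CL minus vehicle) of the 4 members (red points) and of miR-181a-1-3p (grey point) with 95% intervals from limma, above the number of all 425 tested miRNAs at each log2 fold change (bars, 0.1 wide). The 4 members sit between −0.035 and 0.042, and every interval shown spans 0.

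No pair of members differed in its change by the exact test, which cannot reach p = 0.05 with 2 arrays against 2. The 6 pairs were compared by the difference of their log2 signals within each array, in which anything common to both members on an array cancels. As processed here, the largest difference in change was between miR-181b-5p and miR-181d-5p. Their log2 signals differed by 0.71 and 0.67 for vehicle and by 0.56 and 0.67 for CL, a difference in change of −0.077 (exact permutation test, two-sided p = 0.333, adjusted p = 0.667 over the 6 pairs). The groups did not overlap here, though vehicle 2 and CL 2 were nearly equal. With only the longest probe of each member the difference was −0.034, and without normalization between arrays it was −0.046, and in both the groups overlapped. For miR-181a-5p against miR-181c-5p, the pair with the longest common probe stretch, the difference in change was 0.0057 (exact two-sided permutation p = 1). On single probes, averaged over spots, the log2 fold changes of the 8 probes lay between −0.046 and 0.064. The shorter and the longer probe of each member were thus both near level. They are not independent, since the stretch that the shorter pairs with lies within that of the longer. For miR-181c-5p the shorter and longer probe differed in sign (0.023 and −0.0083), as for miR-181d-5p (0.064 and −0.0094).

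In the normalized values, the members also had a small spread over all 4 arrays, irrespective of group. The highest and the lowest array differed by 0.072 for miR-181a-5p, 0.097 for miR-181b-5p, 0.042 for miR-181c-5p and 0.059 for miR-181d-5p on the log2 scale. Ordered from the smallest of 425, these spreads had ranks 10, 22, 5 and 7, while the median over all tested miRNAs was 0.55. Spread varied with signal. In the 106 miRNAs of the second quartile of mean signal, which holds miR-181c-5p and miR-181d-5p, the median spread was 0.62, and in the 106 of the third quartile, which holds miR-181a-5p and miR-181b-5p, it was 0.78. A spread of at most 0.1 was found in 9 of the 107 miRNAs of the first quartile, 7 of 106 in the second and 3 of 106 in each of the third and the fourth, the members included. In the deposited log2 table, the arrays ran from 6.87 to 6.93 for miR-181a-5p and from 5.37 to 5.47 for miR-181b-5p. They ran from 4.85 to 4.99 for miR-181c-5p and from 4.25 to 4.38 for miR-181d-5p, farther apart than as processed here. The ranks are a description of the 4 arrays as processed here and were not tested, and the values of near-identical probes are not independent.

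**Figure D4:**
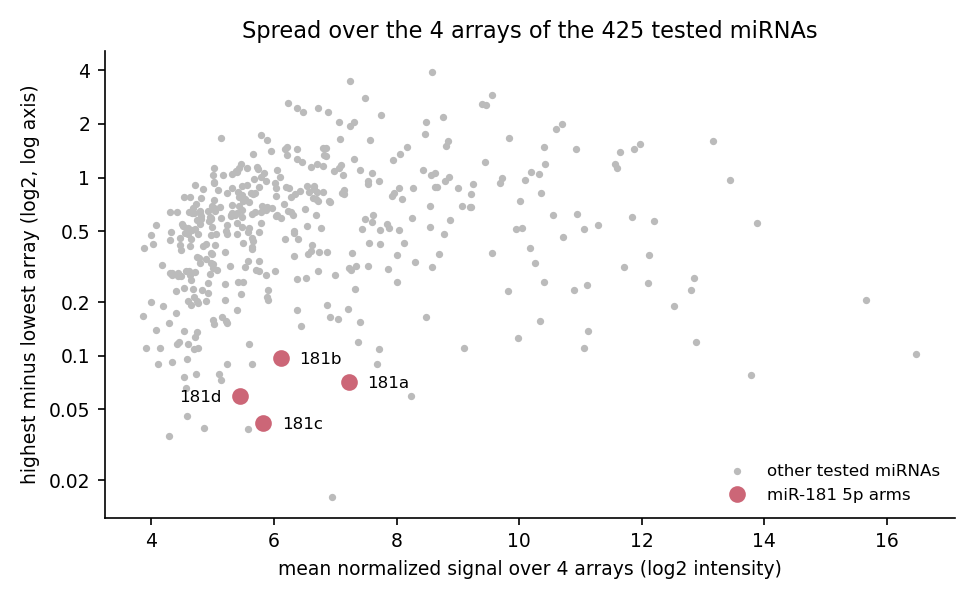
Difference between the highest and the lowest of the 4 arrays (log2 units, log axis) against the mean normalized log2 signal, for the 4 members (red) and the other tested miRNAs (grey). The members lie at 0.042 to 0.097, towards the bottom of the cloud, whose median is 0.55.

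The 5 tested miRNAs outside the family whose profile over the 4 arrays was closest to the mean profile of the members were miR-1839-3p, miR-3068-3p, miR-574-3p, miR-29b-1-5p and miR-194-5p. Their root mean square difference from that profile, after each miRNA was centred on its own mean, was 0.0096 to 0.019 log2 units over 4 arrays, against a median of 0.22 over all tested miRNAs. The members themselves lay at 0.012 to 0.030 from it. The log2 signal of miR-1839-3p, the closest, was 6.94 and 6.94 for vehicle and 6.94 and 6.95 for CL. Since the members' profile was nearly flat, likeness to it means little more than that these miRNAs were nearly flat as well.

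The opposite, 3p arms of the hairpins were examined because they differ between loci whose 5p arms are the same. The arms of both miR-181a genes are printed with bases 2 to 8 in capitals, and they differ from each other at U5C and U16C, with the base of miR-181a-1-3p first.
miR-181a-1-3p: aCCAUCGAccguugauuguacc
miR-181a-2-3p: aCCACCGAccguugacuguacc
Of the 6 3p arms on the array, 5 were detected on no array, namely miR-181a-2-3p, miR-181b-1-3p, miR-181b-2-3p, miR-181c-3p and miR-181d-3p. All 4 probes of miR-181a-2-3p pair with the hairpin but run past the 3′ end of the mature arm as RefSeq gives it, so that its lack of detection bears on that longer stretch. The normalized log2 signals of these 5 arms lay between 3.76 and 4.08 on all arrays, and no fold change is given for them. Only miR-181a-1-3p, from the cluster on chromosome 1, was detected, on both vehicle arrays and on CL 2, and it was the only 3p arm tested. Its log2 signal was 4.54 and 4.50 for vehicle and 4.77 and 4.76 for CL, so that both CL arrays were higher although the scanner software did not call it detected on CL 1. The difference was 0.24 (standard error 0.11, 95% interval −0.060 to 0.55, adjusted p = 0.196 from limma). It was measured near the background, where 5, 0, 1 and 6 of 40 spots passed the software's background flag on vehicle 1, vehicle 2, CL 1 and CL 2. In the deposited log2 table, where it was listed at 1.24, −0.67, −3.20 and 2.52 on these arrays, the direction turned, to −0.63. Both 75th-percentile scalings raise low signals to a common floor, and there the difference was 0, which is no measured lack of change. With the trend on probe composition removed, the difference was 0.088. It was larger with the scanner software's totals per miRNA, at 1.50, and with the sum of its probe totals, at 0.49. The deposited CL 1 value is the lowest of the array, which all undetected miRNAs carry.

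The labelled tissue was checked against miRNAs known to mark its cells. The 6 leukocyte miRNAs, both endothelial ones, the 4 fibroblast ones and both mural ones of the lists were detected on all 4 arrays, and so were both red cell and all 3 muscle miRNAs. Of the 4 epithelial and mesothelial ones, 3 were detected on no array. In bulk RNA, fewer cells of a type and less RNA per cell cannot be told apart. At an unadjusted p of 0.05, which 18.8% of all tested miRNAs passed as higher and 16.2% as lower, 2 leukocyte miRNAs were higher and 1 was lower, both endothelial ones were lower, all 4 fibroblast ones were higher, 1 of the mural ones was lower and both red cell ones were higher after CL treatment. No member of any list passed the adjusted threshold. For each list, the linear signals were summed and the log2 of the sum taken, in which the brightest miRNA weighs most. For the endothelial list (miR-126-3p and miR-126-5p) it was 13.92 and 13.80 for vehicle and 12.33 and 12.66 for CL. That of the fibroblast list, which opens with both arms of miR-199a, was 11.74 and 10.98 against 12.59 and 12.62. For the leukocyte list it was 11.29 and 10.90 against 11.81 and 11.78, while the median log2 fold change of its 6 miRNAs was 0.058. For the red cell list it was 13.00 and 13.21 against 14.04 and 13.80. For the mural list it was 9.31 and 9.07 against 8.62 and 8.73, and for the muscle list 8.15 and 7.17 against 7.92 and 8.11. The groups overlapped in the sum of the muscle list and not in the other sums, while single miRNAs without overlap made up 72.9% of those tested. The part of the cell mix in the signals of the family was not tested.

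Under the 22 other ways of processing the data, none of the members passed an adjusted p of 0.05, and the lowest adjusted p of any member was 0.164, from limma after scaling to the 75th percentile of all probes. There the 4 members were higher by 0.16 to 0.19, and 2 of them passed the unadjusted threshold. The members lay farthest apart once each array's trend on the base composition and length of the probes was removed, with 0.29 for miR-181a-5p and 0.28 for miR-181b-5p, which have the shortest probes, 0.080 for miR-181d-5p and −0.18 for miR-181c-5p, which has the longest. The sign of each member depended on the processing, so that no direction is given for the family.

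**Figure D5:**
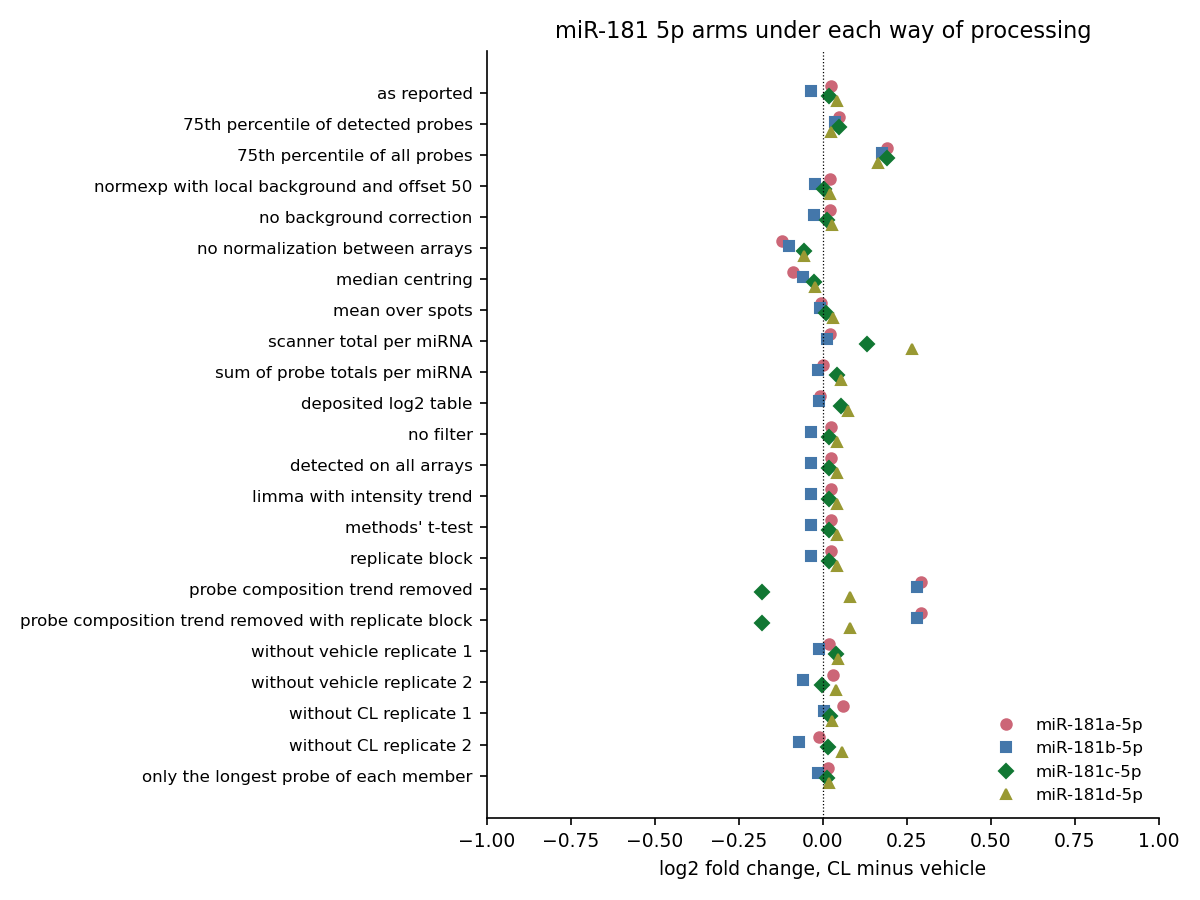
Log2 fold change (CL minus vehicle) of the 4 members under each way of processing, with the values of the report in the top row. The values lie between −0.18 and 0.29 and fall on both sides of 0, and the members separate from each other most where the trend on probe composition was removed.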

How the data were processed

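miRNAs of visWAT SVFs were measured on 4 one-colour arrays, grouped by the titles of their labels. The authors deposited scanner files (Feature Extraction 10.7.1.1) with the linear intensity of each spot, 52044 per array, its background, the software's flags (other values, 0 or 1) and totals per miRNA. A further deposited table holds log2 values whose making is not stated and whose columns have medians of −3.31, −3.30, −3.20 and −3.26, each the lowest value of its array. Among detected miRNAs whose listed total did not exceed the sum of their probe totals by over 2%, the order of values followed the totals (rank correlation 1 on every array) with a slope of 0.978 to 1.03 on log2 totals, so that scale and direction are known and centring between arrays is not. For 93 to 105 detected miRNAs per array, none of them a member, the listed total exceeded that sum, and the sum was therefore added as an alternative after the data had been seen.

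Robust multi-array analysis and SAM are named in the methods. Accordingly, mean spot intensities were corrected with the normexp model over all spots, control and outlier spots were left out, and arrays were quantile-normalized and summarised per miRNA by median polish on the log2 scale (limma 3.58.1, R 4.3.3). Quantile normalization assumes like distributions in both groups. The software detected 386 to 431 miRNAs per array, no spot was saturated, and a miRNA was tested if both vehicle or both CL arrays detected it (425). The two-sided test was limma's (lmFit, eBayes), and p-values were adjusted over all 425 by Benjamini-Hochberg. The procedure was tested on simulated data. SAM, which rests on relabelling 4 arrays, was not run. Exact permutation tests used SciPy 1.17.1. The number of arrays limits precision. P-values measure the spread between pools, and nothing given here says how the pools were drawn.

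Same-numbered arrays deviated together with a correlation of 0.12 across miRNAs, and the numbers coincide with the columns of the slide, so the block is given beside the results. The members, the lists of marker miRNAs and the tests were chosen with earlier results of these data known. The text names the 4 members, all 6 3p arms, the 5 most alike miRNAs and counts of each marker list. Sequences and positions are from RefSeq, GRCm38.p6. The file headers name mm9. The listed positions of the miR-181c-5p and miR-181d-5p probes lay outside RefSeq's mature arms and were not used. The alternatives covered background correction, normalization, summary over spots, source of values, filter, test, block, probe composition, single probes and arrays left out.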

Additional observations from a re-analysis of the deposited data

How the results depend on the processing

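No alternative brought a member or a 3p arm past an adjusted p of 0.05 in limma or in the methods' t-test, whereas the signs of the members varied. Without normalization between arrays, miR-181a-5p, miR-181c-5p and miR-181d-5p were at −0.12, −0.055 and −0.057 on the log2 scale (median of all tested miRNAs −0.12), and with median centring at −0.090, −0.028 and −0.023 (median −0.085). The value of miR-181a-5p was −0.0045 with the mean over spots and −0.0080 in the deposited table, where miR-181a-1-3p was at −0.63. That of miR-181b-5p was 0.035 and 0.18 with the 75th percentile of detected and of all probes, and 0.013 with the scanner totals. With the sum of probe totals, added after seeing the data, miR-181d-5p was at 0.055 and miR-181a-1-3p at 0.49, against 0.27 and 1.50 with the scanner totals. Other values of miR-181a-1-3p were 0.077 with local background, 0.088 with the trend on probe composition removed, and 0 at the floor of both 75th-percentile scalings. With the trend on probe composition removed, with or without the replicate block, miR-181b-5p was at 0.28 and miR-181c-5p at −0.18. With an array left out, miR-181a-5p ranged from −0.013 (without CL 2) to 0.059, miR-181b-5p from −0.073 to 0.0027 (without CL 1), miR-181c-5p from −0.0035 (without vehicle 2) to 0.038 and miR-181d-5p from 0.03 to 0.06. In these fits, a lone array was taken to vary as much as arrays of the other group do. Without normalization between arrays, the difference in change was −0.020 between miR-181a-5p and miR-181b-5p, −0.068 between miR-181a-5p and miR-181c-5p, and 0.0018 between miR-181c-5p and miR-181d-5p. Calls over all miRNAs at an adjusted p of 0.05 in limma, 0 as reported (149 unadjusted), numbered 86 with the replicate block, 2 with an intensity trend, 7 in the deposited table, 26 for scanner totals, 44 after median centring, 64 when arrays were not normalized to each other, 51 with the trend on probe composition removed and 59 with that and the replicate block. Leaving out single arrays gave 1 call (vehicle 2 left out) to 229 calls (vehicle 1 left out), with 21 for CL 1 and 31 for CL 2. The replicate block changed no call of a member. Leaving out shared probes could not be run as an alternative, since no probe was shared. Signals of miR-181d-5p and the 3p arms lay close to the background, which limits what could be measured of them. The cause of these dependences was not tested.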
